A study of Mus musculus with 24 samples.

Results

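The genes described here are 10 components of 3 signalling systems of blood vessels: the ligands Vegfa, Vegfb and Angpt1, and the receptors Flt1, Kdr, Nrp1, Tek, Tie1, Calcrl and Ramp2. They were chosen by gene symbol as named components of these systems, and all 10 were found among the 29716 genes of the count table and passed the filter that left 15618 genes for testing. RNA-seq was done on CD31+ cells of C57BL/6J mouse embryos at E10.5, which had been given an antibody into the heart and then kept for 5 h in medium holding 5 µg/ml of it. The antibody was either against the Notch ligand Dll4 or an anti-human IgG that served as control, and the medium of all embryos also held 10 ng/ml IL-3 and 10 µM hydrocortisone. Cells were sorted into Kit+ CD45+, Kit+ CD45- and Kit- CD41+ CD45- populations, each with 4 anti-Dll4 and 4 IgG libraries, so there were 6 groups and 24 libraries. The question put by the series title is what Dll4 does to the recruitment of blood-forming cells into the clusters of the aorta. The number of embryos per library is not in the labels, and p-values measure only the spread between these libraries, which may in part be technical. The sample descriptions open with a number shared by the 3 populations of each replicate and antibody. Whether such a set came from the same embryos is not stated, and the tests took all 24 libraries as independent.

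Vascular endothelial growth factors act on endothelium through tyrosine kinase receptors. Kdr carries most of the growth and survival signal, Flt1 binds Vegfa more tightly but signals weakly and can act as a sink for it, and Nrp1 is a co-receptor that strengthens Kdr signalling. Angpt1 activates the receptor Tek, also called Tie2, which steadies vessels and is also found on blood stem cells, and Tie1 is a related receptor with no well settled ligand that modulates Tek. Calcrl is a G protein-coupled receptor whose ligand is set by its partner: with Ramp2 it becomes a receptor for adrenomedullin, which is needed for the vessels of the embryo. Notch signalling started by Dll4 on neighbouring cells is known to shape the response of endothelium to VEGF, in part through the levels of these receptors.

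The letters before the start sites of 3 receptor genes, 2 of VEGF and 1 of angiopoietin, are shown because Notch acts through RBPJ at sites that hold TGGGAA, and endothelial genes are often bound by ETS factors at GGAAG. The sequences are RefSeq's on GRCm38.p6, read 5′ to 3′ on the strand of the gene and ending next to the gene, with matches to these letters on either strand in capitals. They come from chr5:147726012-147726261 on the minus strand for Flt1, chr5:75978459-75978705 on the minus strand for Kdr and chr4:94739039-94739288 on the plus strand for Tek.
Flt1: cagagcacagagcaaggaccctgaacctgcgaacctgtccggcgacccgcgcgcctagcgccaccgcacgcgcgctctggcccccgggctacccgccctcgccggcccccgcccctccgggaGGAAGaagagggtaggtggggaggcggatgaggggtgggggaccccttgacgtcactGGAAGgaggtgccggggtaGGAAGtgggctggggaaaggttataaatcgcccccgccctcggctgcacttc
Kdr: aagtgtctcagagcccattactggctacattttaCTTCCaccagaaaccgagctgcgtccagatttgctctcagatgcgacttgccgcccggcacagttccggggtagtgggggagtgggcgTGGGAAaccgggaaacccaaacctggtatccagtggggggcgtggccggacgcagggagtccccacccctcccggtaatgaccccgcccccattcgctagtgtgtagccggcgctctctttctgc
Tek: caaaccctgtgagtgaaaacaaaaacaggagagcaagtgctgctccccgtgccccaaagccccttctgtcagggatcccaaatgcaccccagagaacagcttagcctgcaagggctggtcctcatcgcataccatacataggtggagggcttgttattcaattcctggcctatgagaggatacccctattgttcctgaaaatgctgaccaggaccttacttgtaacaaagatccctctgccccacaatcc
Flt1 had 3 matches to GGAAG in the 250 bases before its start and none to TGGGAA, Kdr had 1 match to each, and Tek had no match to either. Windows were found for 8 of the 10 genes, not for Angpt1 and Ramp2. Tie1 had 1 match to TGGGAA and 6 to GGAAG, and each Vegfa window had 2 and 1. Nrp1 had 3 matches to GGAAG and Calcrl 1, with none to TGGGAA, and Vegfb had no match to either. Among 32851 promoter windows of the same length, 21.6% held TGGGAA and 64.1% held GGAAG on either strand. A match is a string of letters and was not tested as a binding site. The capitals mark no overlap of one motif with the other in these 3 stretches.

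Library totals ran from 8718351 to 11379830 counts, and levels are given as CPM, counts scaled to a common library size with TMM factors. Differences are log2 fold changes with their standard error (SE) from edgeR's quasi-likelihood test over all tested genes, with p-values adjusted by Benjamini-Hochberg and a threshold of 0.05. Endothelial markers (16 genes, among them Cdh5 and Pecam1) summed to between 2129 and 2919 CPM in Kit+ CD45+ anti-Dll4 libraries, 686 to 1222 in Kit+ CD45- anti-Dll4 libraries and 467 to 549 in Kit- CD41+ CD45- anti-Dll4 libraries. The sums under IgG were 2137 to 2895, 1178 to 2517 and 408 to 674 CPM in the same order of populations. A sum is led by its most abundant genes. In Kit+ CD45- against Kit- CD41+ CD45- cells the 16 markers had a median log2 fold change of 5.34 under anti-Dll4 and 4.23 under IgG. Of them, 3 and 1 had lower fitted levels in Kit+ CD45- cells. Cdh5, the cadherin of endothelial junctions, was at 0.318 ± 0.318 CPM in Kit- CD41+ CD45- cells under anti-Dll4 and 0.572 ± 0.605 under IgG (SD, n = 4 each), and their 12 megakaryocyte markers summed to at least 22196 CPM, so the label of embryonic haematopoietic cells covers populations of different make-up. In bulk samples such as these, fewer cells of a type and less RNA per cell cannot be told apart.

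Features of several kinds set libraries apart. Replicate 1 of Kit+ CD45- cells under IgG had an endothelial marker sum of 2517 CPM, against 1178 to 1365 in the other IgG libraries of that population, and globin genes took 16.9% of its counts, against 27.4% to 33.7%. Many results that use this library are also given without it, but not all. The 3 libraries of replicate 1 under anti-Dll4 had 1244, 523 and 952 counts of the Y-linked gene Ddx3y and at most 5 of Xist, while each of the other libraries had at least 1455 counts of Xist. Of these others, Kit+ CD45+ anti-Dll4 replicate 3 had 15 counts of Ddx3y and the rest had 0. The 3 libraries of replicate 1 under anti-Dll4 share a set number, so in this set the sex-linked counts were alike across populations. Whether the populations of a set came from the same embryos was not tested. Kit+ CD45+ IgG replicate 1 had a macrophage marker sum of 395 CPM, against 2023 to 3012 CPM in the other IgG libraries of that population. In Kit+ CD45- anti-Dll4 replicate 4 globin genes took 49.3% of counts, against 22.1% to 36.2% in the other anti-Dll4 libraries of that population. Its endothelial marker sum was 686 CPM, against 980 to 1222 CPM in those libraries.

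**Figure D1:**
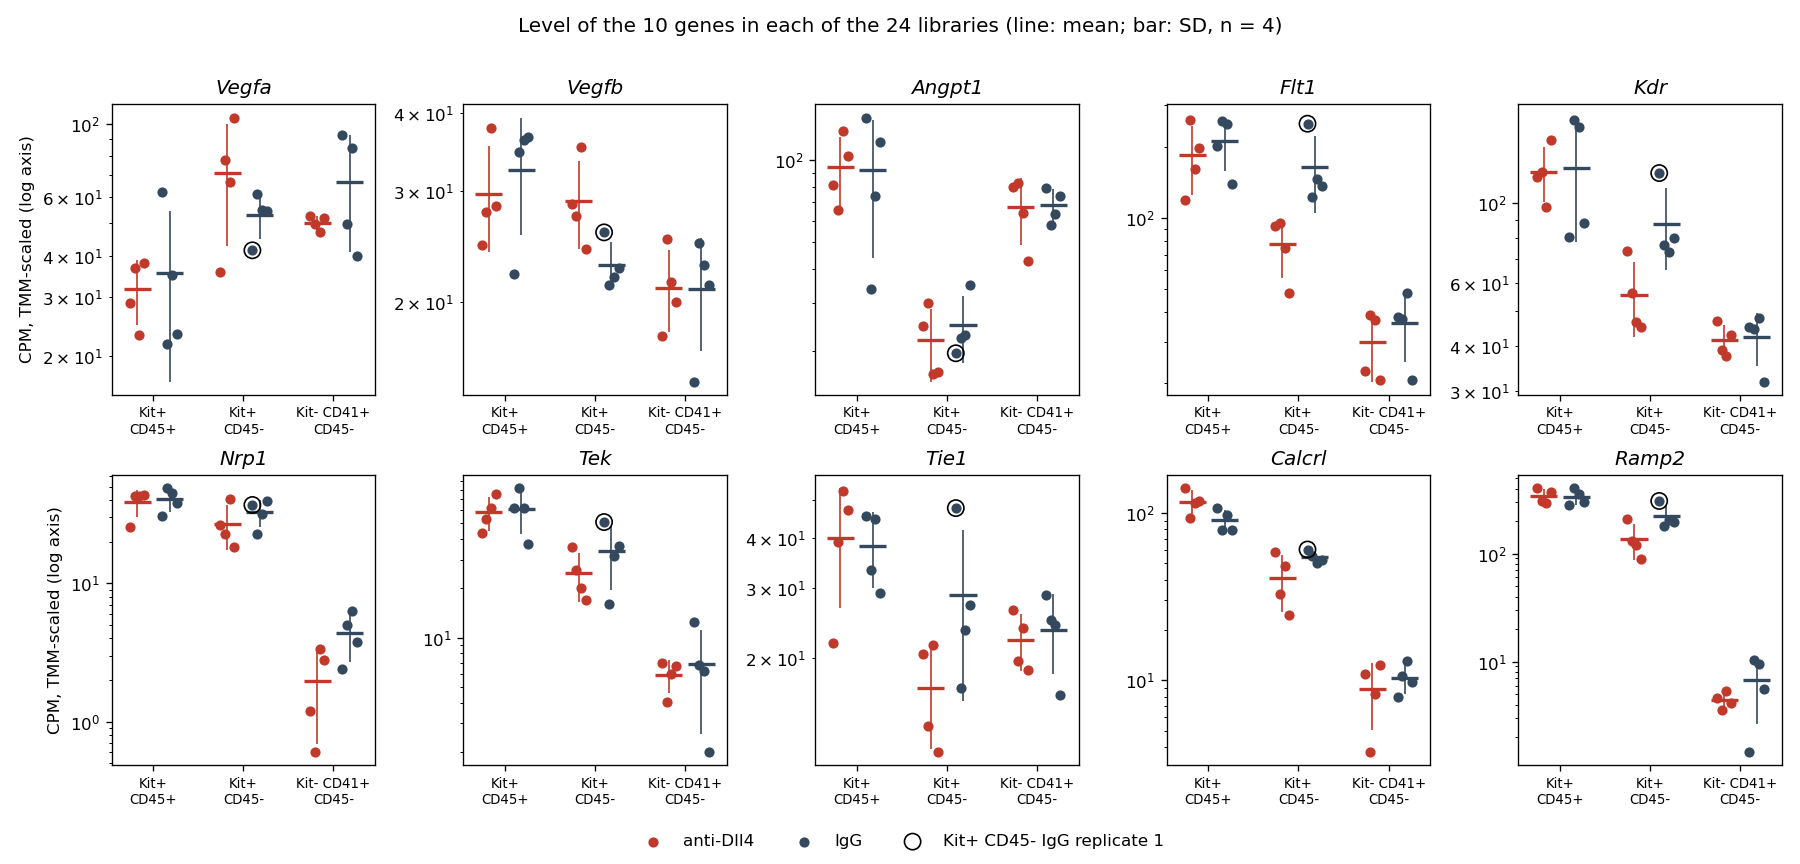
Level of the 10 genes in each of the 24 libraries, in TMM-scaled CPM on a log axis that differs between panels, by population and antibody; lines are means and bars SD over 4 libraries, and the ring marks Kit+ CD45- IgG replicate 1. Ramp2, Nrp1, Calcrl, Tek and Flt1 form a low cloud in Kit- CD41+ CD45- cells, while Angpt1 is low in Kit+ CD45- cells.

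Between populations, mean levels of 6 of the 7 receptors were ordered Kit+ CD45+, Kit+ CD45-, Kit- CD41+ CD45- from high to low under both antibodies. Tie1 was lowest in Kit+ CD45- cells under anti-Dll4, and under IgG it had the order of the others only with Kit+ CD45- replicate 1 included. Under anti-Dll4, 5 of the 10 genes were higher and 1 lower in Kit+ CD45- than in Kit- CD41+ CD45- cells, where 29.9% of all tested genes were called (14.7% higher and 15.2% lower). In Kit+ CD45+ against Kit- CD41+ CD45- cells 8 were higher and none lower under anti-Dll4, with 37.6% of all genes called (20.4% higher and 17.3% lower). In Kit+ CD45+ against Kit+ CD45- cells 7 were higher and 1 lower under anti-Dll4, with 29.2% of all genes called (16.6% higher and 12.6% lower). Under IgG the same pairs gave 6 higher and 1 lower, with 27.9% of all genes called (14% higher and 13.8% lower), then 7 higher and 1 lower, with 37.2% called (19.7% higher and 17.5% lower), and 2 higher and none lower, with 19.2% called (10% higher and 9.18% lower). The ranges of the 4 libraries did not overlap for 6, 7 and 7 of the 10 genes in these pairs under anti-Dll4, as for 28.6%, 37.1% and 24.4% of all tested genes, and for 7, 7 and 1 of them under IgG, as for 29.2%, 38.3% and 19.7% of all tested genes. The median log2 fold changes of the 10 genes for these pairs were 0.94, 2.10 and 1.24 under anti-Dll4 and 1.62, 2.06 and 0.51 under IgG, while the medians of all tested genes lay between 0.04 and 0.10. The IgG calls in Kit+ CD45- against Kit- CD41+ CD45- cells were the same 7 genes without Kit+ CD45- IgG replicate 1. Calls among all tested genes went from 4357 to 3824 without it. The 3 pairs share libraries with each other, so their values are not independent.

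Of the ligands, Vegfa, the main growth factor of vessels, was lower in Kit+ CD45+ cells in 2 of the 4 comparisons with the other populations. It stood at 28.9, 36.8, 23.1 and 38.0 CPM in Kit+ CD45+ cells under anti-Dll4 and at 62.3, 21.6, 34.9 and 23.2 under IgG. In Kit+ CD45- cells it had 35.8, 77.8, 66.7 and 104 CPM under anti-Dll4, against 41.5, 61.5, 54.9 and 54.6 under IgG, and in Kit- CD41+ CD45- cells 52.5, 49.9, 47.0 and 51.8 CPM under anti-Dll4, against 92.6, 49.8, 84.1 and 39.8 under IgG. Replicate 1 of Kit+ CD45+ cells under IgG lay among the values of the other populations, and the other libraries of the CD45+ population stayed below 40 CPM. Kit+ CD45+ cells were lower than Kit+ CD45- cells under anti-Dll4, by a log2 fold change of -1.16 (SE 0.32, adjusted p = 0.0078), but under IgG the difference of -0.58 (SE 0.31) had an adjusted p of 0.216. Without Kit+ CD45+ IgG replicate 1 that difference was -0.99 and passed the threshold (adjusted p = 0.025). Against Kit- CD41+ CD45- cells the difference was -0.67 under anti-Dll4 (SE 0.31, adjusted p = 0.102) and -0.90 under IgG (SE 0.31, adjusted p = 0.0261). In a fit of only the groups compared the anti-Dll4 difference was -0.71 with an adjusted p of 0.00483. The IgG call was lost, with adjusted p between 0.0536 and 0.106, without Kit- CD41+ CD45- replicate 1 or 3 or Kit+ CD45+ replicate 2, 3 or 4, the smallest difference then being -0.70. The 2 populations without CD45 did not differ past the threshold in Vegfa under either antibody (adjusted p = 0.252 under anti-Dll4 and 0.481 under IgG).

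Vegfb, which binds Flt1 and not Kdr, varied least. Its group means ran from 21.0 ± 4.29 CPM in Kit- CD41+ CD45- cells under IgG to 32.4 ± 6.87 in Kit+ CD45+ cells under IgG (SD, n = 4 each). It was higher in Kit+ CD45+ than in Kit- CD41+ CD45- cells, by 0.49 under anti-Dll4 (SE 0.19, adjusted p = 0.0439) and by 0.62 under IgG (SE 0.19, adjusted p = 0.0116). The IgG call was lost without Kit- CD41+ CD45- replicate 1 (0.49, adjusted p = 0.0537), and the anti-Dll4 call was lost in 6 of the 8 fits that leave out 1 of its libraries, where the difference ranged from 0.36 to 0.52. Against Kit+ CD45- cells under IgG the difference of 0.50 in Kit+ CD45+ cells had an adjusted p of 0.0687, and it was 0.64 without Kit+ CD45+ IgG replicate 1 (adjusted p = 0.018). Kit+ CD45- against Kit- CD41+ CD45- cells under anti-Dll4 gave 0.46 (adjusted p = 0.0737), which passed the threshold with upper-quartile scaling (0.60, adjusted p = 0.0175) and with DESeq2 (0.49, adjusted p = 0.0499). The ranges of Kit+ CD45+ and Kit- CD41+ CD45- cells overlapped under both antibodies: the highest Kit- CD41+ CD45- library under IgG, at 24.9 CPM, was above the lowest Kit+ CD45+ library under IgG, at 22.2 CPM.

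Angpt1, the ligand that activates Tek, had its lowest level in Kit+ CD45- cells. It stood at 80.9, 65.8, 128 and 104 CPM in Kit+ CD45+ cells under anti-Dll4 and at 143, 33.8, 74.0 and 116 under IgG. Kit+ CD45- cells had 24.7, 30.0, 16.5 and 16.8 CPM under anti-Dll4 and 19.6, 22.3, 22.9 and 34.9 under IgG, and Kit- CD41+ CD45- cells had 79.9, 82.7, 63.9 and 42.6 CPM under anti-Dll4 and 79.0, 58.1, 63.3 and 73.8 under IgG. All Kit+ CD45- libraries lay below all Kit- CD41+ CD45- libraries, and 1 Kit+ CD45+ library, IgG replicate 2 at 33.8 CPM, lay within the range of the Kit+ CD45- libraries. The log2 fold change of Kit+ CD45- against Kit- CD41+ CD45- cells was -1.61 under anti-Dll4 (SE 0.33, adjusted p = 0.000608) and -1.46 under IgG (SE 0.33, adjusted p = 0.00147). Kit+ CD45+ cells were above Kit+ CD45- cells by 2.10 under anti-Dll4 (SE 0.33, adjusted p = 4.83e-05) and by 1.88 under IgG (SE 0.33, adjusted p = 0.000207). Between Kit+ CD45+ and Kit- CD41+ CD45- cells no difference passed the threshold (0.49 under anti-Dll4, adjusted p = 0.237, and 0.42 under IgG, adjusted p = 0.315), although without Kit+ CD45+ IgG replicate 2 the IgG difference was 0.70 with an adjusted p of 0.0485. Without Kit+ CD45- IgG replicate 1 Kit+ CD45- against Kit- CD41+ CD45- cells gave -1.36 (adjusted p = 0.00742), and Kit+ CD45+ against Kit+ CD45- cells gave 1.78 (adjusted p = 0.0011). Angpt1 overlaps an antisense gene, Gm17473, over 737 exon bases, and whether the counting used strand is not given in the sources used here.

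Flt1, the VEGF receptor that can act as a sink, was high in both Kit+ populations. Kit+ CD45+ cells had 119, 261, 161 and 199 CPM under anti-Dll4 and 202, 256, 251 and 140 under IgG. Kit+ CD45- cells had 92.5, 95.3, 74.4 and 48.1 CPM under anti-Dll4 and 251, 122, 146 and 137 under IgG, and Kit- CD41+ CD45- cells had 22.6, 38.8, 37.1 and 20.7 CPM under anti-Dll4 and 38.1, 37.5, 48.2 and 20.6 under IgG. Every Kit- CD41+ CD45- library lay below every library of the other populations except Kit+ CD45- anti-Dll4 replicate 4, which at 48.1 CPM stood level with the highest of them at 48.2 CPM. Kit+ CD45- against Kit- CD41+ CD45- cells gave 1.38 under anti-Dll4 (SE 0.30, adjusted p = 0.00114) and 2.18 under IgG (SE 0.31, adjusted p = 8.32e-06). Kit+ CD45+ against Kit+ CD45- cells gave 1.25 under anti-Dll4 (SE 0.30, adjusted p = 0.00273) and 0.37 under IgG (SE 0.29, adjusted p = 0.419). Without Kit+ CD45- IgG replicate 1 the last value was 0.65 (adjusted p = 0.124), and the excess of Kit+ CD45- over Kit- CD41+ CD45- cells under IgG was 1.90 (adjusted p = 4.64e-05).

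Kdr, the main signalling receptor for VEGF, had the same order with smaller steps. Kit+ CD45+ cells had 118, 122, 98.0 and 151 CPM under anti-Dll4 and 80.7, 171, 163 and 88.4 under IgG. Kit+ CD45- cells had 73.9, 56.3, 46.6 and 45.3 CPM under anti-Dll4 and 122, 76.4, 73.1 and 80.3 under IgG, and Kit- CD41+ CD45- cells had 46.9, 38.9, 37.6 and 42.9 CPM under anti-Dll4 and 45.3, 44.5, 47.9 and 31.8 under IgG. The ranges of Kit+ CD45- and Kit- CD41+ CD45- cells overlapped under anti-Dll4 and were apart under IgG. That pair differed by 0.42 under anti-Dll4 (SE 0.23, adjusted p = 0.182) and by 1.05 under IgG (SE 0.23, adjusted p = 0.00126). Kit+ CD45+ cells exceeded Kit+ CD45- cells by 1.14 under anti-Dll4 (SE 0.23, adjusted p = 0.000643), against 0.52 under IgG (SE 0.23, adjusted p = 0.116). The IgG difference passed the threshold without Kit+ CD45- IgG replicate 1 (0.72, adjusted p = 0.0311) or without Kit+ CD45+ IgG replicate 1 (0.68, adjusted p = 0.0382), and without the first of these the Kit+ CD45- excess over Kit- CD41+ CD45- cells was 0.85 (adjusted p = 0.00882).

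Nrp1, the co-receptor, was low in Kit- CD41+ CD45- cells. Those cells had 1.21, 0.605, 3.34 and 2.78 CPM under anti-Dll4 (from 6 to 32 reads a library) and 2.40, 4.96, 6.31 and 3.77 under IgG (from 28 to 63 reads). Kit+ CD45+ cells had 25.7, 42.8, 42.5 and 43.6 CPM under anti-Dll4 and 30.5, 48.8, 44.5 and 38.2 under IgG, and Kit+ CD45- cells had 26.5, 22.5, 40.4 and 18.1 CPM under anti-Dll4 and 36.8, 22.7, 31.7 and 39.0 under IgG. The Kit+ populations overlapped each other and neither overlapped the Kit- population. Kit+ CD45- against Kit- CD41+ CD45- cells gave 3.77 under anti-Dll4 (SE 0.39, adjusted p = 8.06e-08) and 2.90 under IgG (SE 0.36, adjusted p = 1.59e-06). Kit+ CD45+ against Kit+ CD45- cells gave 0.52 under anti-Dll4 (SE 0.32, adjusted p = 0.248) and 0.31 under IgG (SE 0.32, adjusted p = 0.554). Without Kit+ CD45- IgG replicate 1 the excess of Kit+ CD45- over Kit- CD41+ CD45- cells under IgG was 2.84 (adjusted p = 6.54e-06).

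Of the Tie receptors, Tek was called against Kit- CD41+ CD45- cells in both Kit+ populations. Tek, the angiopoietin receptor, had 43.7, 52.9, 61.8 and 75.4 CPM in Kit+ CD45+ cells under anti-Dll4 and 62.3, 82.1, 61.9 and 37.6 under IgG. Kit+ CD45- cells had 35.8, 25.8, 20.2 and 17.1 CPM under anti-Dll4 and 50.8, 15.99, 31.7 and 36.5 under IgG, while in Kit- CD41+ CD45- cells the values were 7.03, 4.03, 5.95 and 6.67 CPM under anti-Dll4 and 12.5, 6.82, 6.21 and 2.00 under IgG. No Kit- CD41+ CD45- library reached the lowest library of either Kit+ population. Against Kit- CD41+ CD45- cells, Tek was higher by 3.13 in Kit+ CD45+ cells (SE 0.40, adjusted p = 1.09e-06) and by 2.28 in Kit+ CD45- cells (SE 0.39, adjusted p = 8.75e-05) under IgG. Between the Kit+ populations Tek was higher in Kit+ CD45+ cells under anti-Dll4, by 1.24 (SE 0.37, adjusted p = 0.0134), a call lost without Kit+ CD45- anti-Dll4 replicate 4 (1.09, adjusted p = 0.0542). Under IgG the difference was 0.85 (SE 0.36, adjusted p = 0.106), and without Kit+ CD45- IgG replicate 1 it was 1.12 (adjusted p = 0.0416), while the excess over Kit- CD41+ CD45- cells was 2.01 (adjusted p = 0.000519).

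Tie1, the related receptor, was not called between Kit+ CD45- and Kit- CD41+ CD45- cells. Its means were 40.1 ± 13.4, 16.8 ± 4.99 and 22.1 ± 3.60 CPM in Kit+ CD45+, Kit+ CD45- and Kit- CD41+ CD45- cells under anti-Dll4, and 38.2 ± 8.26, 28.8 ± 13.3 and 23.5 ± 5.35 CPM under IgG (SD, n = 4 each). The difference of Kit+ CD45- from Kit- CD41+ CD45- cells was -0.39 under anti-Dll4 (SE 0.30, adjusted p = 0.354) and 0.29 under IgG (SE 0.29, adjusted p = 0.497). The second of these turned to -0.06 without Kit+ CD45- IgG replicate 1, which at 47.6 CPM was far above the 16.8, 23.5 and 27.2 CPM of its group. Kit+ CD45+ cells exceeded Kit+ CD45- cells by 1.25 under anti-Dll4 (SE 0.30, adjusted p = 0.00274), against 0.40 under IgG (SE 0.29, adjusted p = 0.366), which was 0.76 without that library (adjusted p = 0.0561). They exceeded Kit- CD41+ CD45- cells by 0.86 under anti-Dll4 (SE 0.29, adjusted p = 0.0228), and this call was lost without Kit- CD41+ CD45- anti-Dll4 replicate 2 or 4 or Kit+ CD45+ anti-Dll4 replicate 3 or 4, with differences from 0.70 to 0.81 and adjusted p from 0.0599 to 0.0844. Under IgG that difference was 0.70 (SE 0.29, adjusted p = 0.0615), and it passed the threshold without Kit+ CD45+ IgG replicate 4 (0.81, adjusted p = 0.0465) and in a fit of only the groups compared (0.68, adjusted p = 0.0287).

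Ramp2 had the largest fold changes of the 10 genes between the Kit+ populations and Kit- CD41+ CD45- cells. Ramp2, the partner that makes Calcrl a receptor for adrenomedullin, had 405, 309, 292 and 370 CPM in Kit+ CD45+ cells under anti-Dll4 and 279, 402, 356 and 302 under IgG. In Kit+ CD45- cells it had 208, 132, 120 and 88.8 CPM under anti-Dll4 and 307, 179, 205 and 196 under IgG, against 4.62, 3.53, 5.33 and 4.11 CPM in Kit- CD41+ CD45- cells under anti-Dll4 and 1.45, 10.4, 9.42 and 5.55 under IgG. The lowest Kit+ library was thus several times above the highest Kit- library. The log2 fold change of Kit+ CD45+ against Kit- CD41+ CD45- cells was 6.29 under anti-Dll4 (SE 0.40, adjusted p = 6.8e-11) and 5.65 under IgG (SE 0.39, adjusted p = 9.58e-11). For Kit+ CD45- against Kit- CD41+ CD45- cells it was 4.96 under anti-Dll4 (SE 0.38, adjusted p = 1.22e-09), and without Kit+ CD45- IgG replicate 1 the IgG value of 5.05 became 4.85 (adjusted p = 6.86e-09). Between the Kit+ populations it was higher in Kit+ CD45+ cells under anti-Dll4 (1.33, SE 0.31, adjusted p = 0.00269), with 0.60 under IgG (SE 0.31, adjusted p = 0.193; 0.80 and 0.0892 without that library). Ramp2 shares 1103 exon bases on the same strand with its neighbour Vps25, so reads in that stretch may not be counted to either gene with certainty.

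Calcrl, the receptor itself, had the same order of populations as Ramp2. Its means were 117 ± 19.7, 41.1 ± 15.3 and 8.82 ± 3.79 CPM in Kit+ CD45+, Kit+ CD45- and Kit- CD41+ CD45- cells under anti-Dll4, and 90.8 ± 13.7, 54.6 ± 4.40 and 10.3 ± 2.11 CPM under IgG (SD, n = 4 each). The ranges of the 3 populations were apart from each other under both antibodies. Kit+ CD45+ cells exceeded Kit- CD41+ CD45- cells by 3.73 under anti-Dll4 (SE 0.29, adjusted p = 7.77e-10) and 3.13 under IgG (SE 0.28, adjusted p = 5.98e-09). They exceeded Kit+ CD45- cells by 1.5 under anti-Dll4 (SE 0.26, adjusted p = 0.000129) and 0.73 under IgG (SE 0.25, adjusted p = 0.0451). The IgG call kept its direction without any 1 library (0.65 to 0.80), but leaving out any single library of the pair other than Kit+ CD45- replicate 1 brought the adjusted p to between 0.0517 and 0.113.

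**Figure D2:**
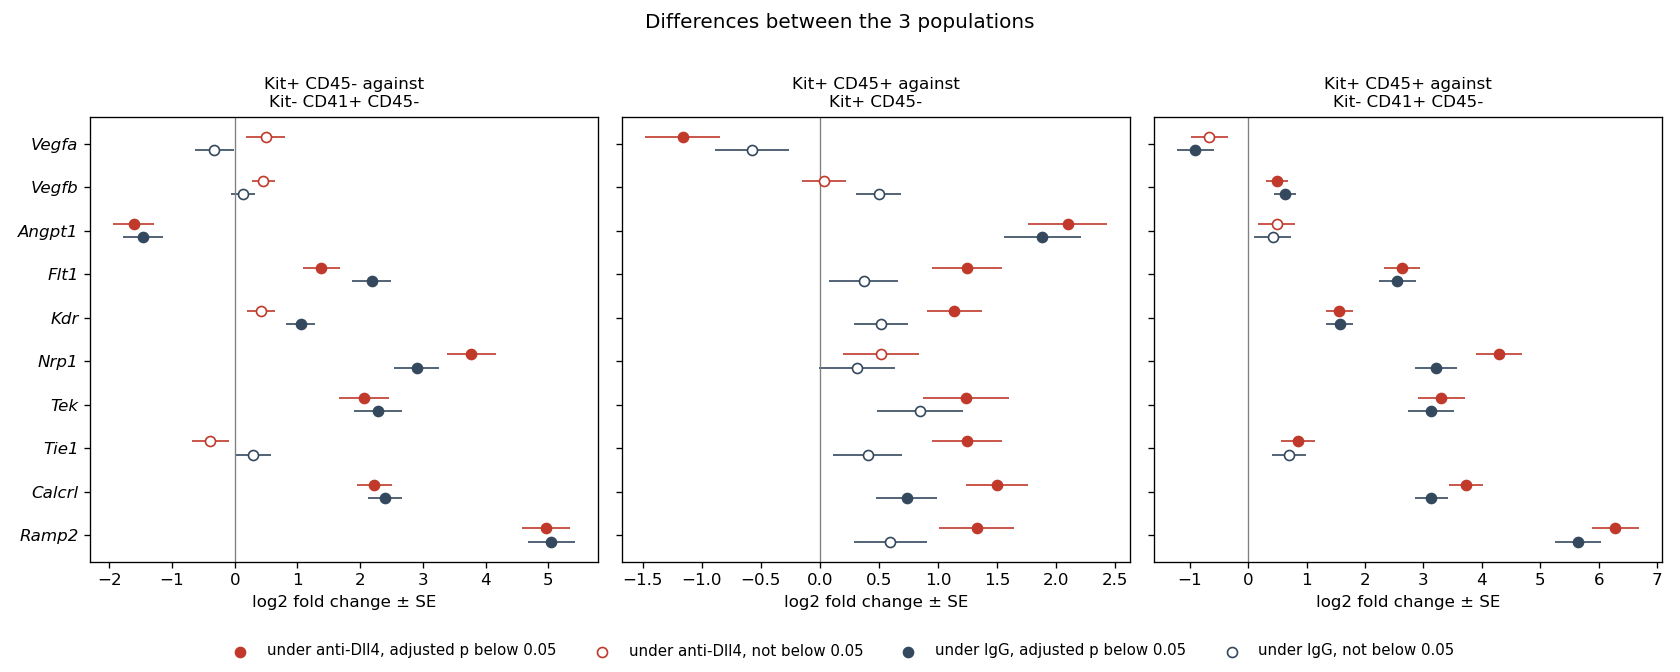
Log2 fold changes between the 3 populations, first named over second, with SE bars; filled points have an adjusted p below 0.05, anti-Dll4 is drawn above IgG for each gene. The receptor points, Tie1 apart, lie right of zero against Kit- CD41+ CD45- cells, with Ramp2 farthest at 6.29 under anti-Dll4, and Angpt1 lies left of zero in the first panel.

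Levels of different genes can be set side by side only per exon length, as mean CPM per kilobase over 4 libraries. On that scale Ramp2 was the highest of the 10 in Kit+ CD45+ cells, at 104 under anti-Dll4 and 101 under IgG, and Calcrl, its partner, stood at 23.9 and 18.6. Flt1 and Kdr lay close together there, at 13.7 and 13.6 under anti-Dll4 and 15.7 and 13.9 under IgG. Flt1 and Kdr in Kit+ CD45- cells were at 5.74 and 6.15 under anti-Dll4 and at 12.1 and 9.73 under IgG. Without IgG replicate 1 the IgG values were 10.0 and 8.48. Among the receptors in Kit- CD41+ CD45- cells Kdr (4.60 under anti-Dll4 and 4.70 under IgG) and Tie1 (4.50 and 4.78) were the highest and Nrp1 the lowest (0.203 and 0.446). The exon length of Ramp2 includes the stretch shared with Vps25.

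Other genes of these pathways were read from a list of 32, of which 25 were tested. In Kit+ CD45- against Kit- CD41+ CD45- cells 11 were higher and 2 lower under anti-Dll4, where 29.9% of all tested genes were called, and 13 higher and 2 lower under IgG, where 27.9% were. Flt4, the receptor for Vegfc in lymphatic and early vessels, had 8.34 ± 2.00 CPM in Kit+ CD45- cells under anti-Dll4 and 12.8 ± 3.15 under IgG, whereas Kit- CD41+ CD45- cells had 0.732 ± 0.387 under anti-Dll4 and 1 count in a single library under IgG (SD, n = 4 each). Adm, which encodes adrenomedullin, was higher in Kit+ CD45- than in Kit- CD41+ CD45- cells by 3.45 under IgG (SE 0.44, adjusted p = 2.03e-06). Also higher under IgG were Plxnd1, a semaphorin receptor (2.77), Nrp2, the relative of Nrp1 (3.13), Foxo1, a transcription factor held back by Tek signalling (2.06), Ptprb, the phosphatase that turns Tek down (4.09), and Angpt2, the ligand that can oppose Angpt1 (2.80). Dok2, an adaptor that binds Tek (-2.65), and Gnas, the G protein subunit that couples Calcrl to cyclic AMP (-0.93), were lower. Without Kit+ CD45- IgG replicate 1 the IgG counts were 12 higher and 2 lower, and calls among all tested genes went from 4357 to 3824.

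Kit+ CD45+ cells had 16 genes of the list higher and 3 lower than Kit- CD41+ CD45- cells under anti-Dll4, beside 37.6% of all tested genes called, and 15 higher and 3 lower under IgG, beside 37.2%. Adm reached 164 ± 36.9 CPM in Kit+ CD45+ cells under IgG, against 12.8 ± 8.44 in Kit- CD41+ CD45- cells under IgG (SD, n = 4 each), a log2 difference of 3.68 (SE 0.44, adjusted p = 4.53e-07). Between the Kit+ populations under IgG 3 of the 25 genes exceeded the threshold upwards in Kit+ CD45+ cells and 3 downwards, a share near the 19.2% of all tested genes called, so the count says nothing particular about the list. The higher ones were Dok2 (1.57), Ramp1, another partner of Calcrl (4.29), and Vegfc, a ligand of Flt4 (1.00), and the lower ones Adm2, a relative of adrenomedullin (-2.46), and the semaphorins Sema3c (-3.08) and Sema3a (-1.88). Without Kit+ CD45- IgG replicate 1 these counts were 2 higher and 1 lower, while calls among all tested genes rose from 2998 to 3397. Not every call named here therefore holds without that library. Under anti-Dll4, where 29.2% of all tested genes were called, 7 were higher, among them Flt4 (1.00, SE 0.34, adjusted p = 0.0272), and Adm2 was lower (-3.09). Adm (0.23 under IgG), Ptprb (0.25) and Angpt2 (0.83) did not differ past the threshold between the Kit+ populations.

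Under the antibody to Dll4 no gene of the 10 differed from IgG past the threshold in any population. In Kit+ CD45- cells 0% of all tested genes were called, in Kit- CD41+ CD45- cells 0% and in Kit+ CD45+ cells 0.0064%. DESeq2 called none of the 10 either, while it called 82, 2 and 14 genes in all in these populations. At an unadjusted p below 0.05 there were 4 of the 10 genes in Kit+ CD45- cells, against 11.1% of all tested genes, 1 in Kit- CD41+ CD45- cells, against 2.79%, and none in Kit+ CD45+ cells, against 2.90%. All 7 receptors in Kit+ CD45- cells had lower fitted levels under anti-Dll4, with a median log2 fold change of -0.66, against -0.03 for all tested genes, 53.4% of which were lower. Without Kit+ CD45- IgG replicate 1 all 7 were still lower, with a median of -0.42. Anti-Dll4 replicate 4 had the lowest anti-Dll4 level of each of the 7 in these cells. Leaving out any single library kept all 7 lower, the smallest difference then being -0.12 for Nrp1.

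Flt1 came closest to a call. Its 92.5, 95.3, 74.4 and 48.1 CPM under anti-Dll4 lay below all of the 251, 122, 146 and 137 CPM under IgG in Kit+ CD45- cells, and without IgG replicate 1 the ranges were still apart. It was the only gene of the 10 whose groups did not overlap there, as was the case for 3.15% of all tested genes. None of the 10 had ranges apart in Kit- CD41+ CD45- cells, against 2.22% of all tested genes, or in Kit+ CD45+ cells, against 1.8%. The log2 fold change was -1.08 (SE 0.30), 2.11-fold lower, with an edgeR adjusted p of 0.214 (0.00135 unadjusted). The adjusted p ran from 0.0517 with DESeq2 to 0.683 over the alternatives. Without IgG replicate 1 it was -0.80 (SE 0.29, adjusted p = 0.629), and without anti-Dll4 replicate 1, the library with Y-linked counts, it was -1.16 (adjusted p = 0.163). In Kit+ CD45+ cells the difference was -0.20 (SE 0.29) and in Kit- CD41+ CD45- cells -0.28 (SE 0.30), both with an adjusted p of 1. The difference of the Flt1 effect between the populations had an adjusted p of 1 and an unadjusted p of 0.0854 in an F-test, and no gene of the 10 passed that test, in which 0.0256% of all genes were called.

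Kdr, Tie1 and Ramp2 had lower fitted levels within overlapping ranges in Kit+ CD45- cells. Kdr differed by -0.66 (SE 0.23, adjusted p = 0.334), Tie1 by -0.77 (SE 0.30, adjusted p = 0.382) and Ramp2 by -0.69 (SE 0.31, adjusted p = 0.422), and without IgG replicate 1 they were at -0.46, -0.42 and -0.50. Kdr overlapped only through anti-Dll4 replicate 1 at 73.9 CPM and IgG replicate 3 at 73.1 CPM. Tek (-0.45), Calcrl (-0.40) and Nrp1 (-0.27) had adjusted p from 0.544 to 0.768. With single libraries left out they ran from -0.67 to -0.18, -0.62 to -0.22 and -0.54 to -0.12, in that order. Of the ligands, Vegfa (0.42, SE 0.31, adjusted p = 0.612) and Vegfb (0.34, SE 0.19, adjusted p = 0.496) had higher fitted levels and Angpt1 a lower one (-0.17, SE 0.33, adjusted p = 0.863). With single libraries left out Vegfa ran from 0.185 to 0.647 and Vegfb from 0.223 to 0.417.

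Markers of 3 cell types are given beside the receptors, and their part in the result was not tested; none of the endothelial, megakaryocyte or globin genes was called in Kit+ CD45- cells. There 15 of the 16 endothelial markers had lower fitted levels with the antibody to Dll4, with a median of -0.82, and without IgG replicate 1 all 16 did, with a median of -0.45. All 12 megakaryocyte markers had lower fitted levels, with a median of -1.08, and summed to 574 to 1702 CPM under anti-Dll4, against 817 to 3752 under IgG. The 817 CPM came from IgG replicate 1, and without it the IgG sums were 2679 to 3752 CPM and the median was -1.38. In that fit 1 megakaryocyte marker was called lower, and 8 of all tested genes were called. Globin genes took 34.0%, 36.2%, 22.1% and 49.3% of the counts under anti-Dll4, in order of replicate, against 16.9%, 33.7%, 29.8% and 27.4% under IgG. Anti-Dll4 replicate 3 thus lay below the IgG libraries other than replicate 1. Of the 25 pathway genes 22 had lower fitted levels (19 without that replicate) and none was called; Flt4 (-0.61, SE 0.34), Ptprb (-0.86, SE 0.56) and Adm (-0.45, SE 0.39) had adjusted p from 0.491 to 0.661, and Angpt2 differed by 0.21 (SE 0.62, adjusted p = 0.924).

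The populations other than Kit+ CD45- showed smaller differences with 1 exception. In Kit- CD41+ CD45- cells Nrp1 had 1.21, 0.605, 3.34 and 2.78 CPM under anti-Dll4, against 2.40, 4.96, 6.31 and 3.77 under IgG, a log2 fold change of -1.14 (SE 0.39) with an edgeR adjusted p of 1 (0.00768 unadjusted). Replicates 3 and 4 under anti-Dll4 lay above IgG replicate 1, so the groups overlapped. Ramp2 followed at -0.60 (SE 0.37), and the other 8 genes of the 10 lay between -0.41 and 0.01. In the same cells Flt4 had at most 10 counts a library under anti-Dll4 and at most 1 under IgG, with an adjusted p of 0.0845. In Kit+ CD45+ cells the 10 genes lay between -0.20 for Flt1 and 0.36 for Calcrl (SE 0.25), each with an adjusted p of 1. Averaged over the populations, Flt1 (-0.52, SE 0.17, adjusted p = 0.503), Nrp1 (-0.49, SE 0.20, adjusted p = 0.571) and Ramp2 (-0.42, SE 0.19, adjusted p = 0.584) had the largest differences of the 10, and 0% of all genes were called. With single libraries left out these averages ran from -0.59 to -0.43, -0.61 to -0.39 and -0.53 to -0.32, in that order.

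**Figure D3:**
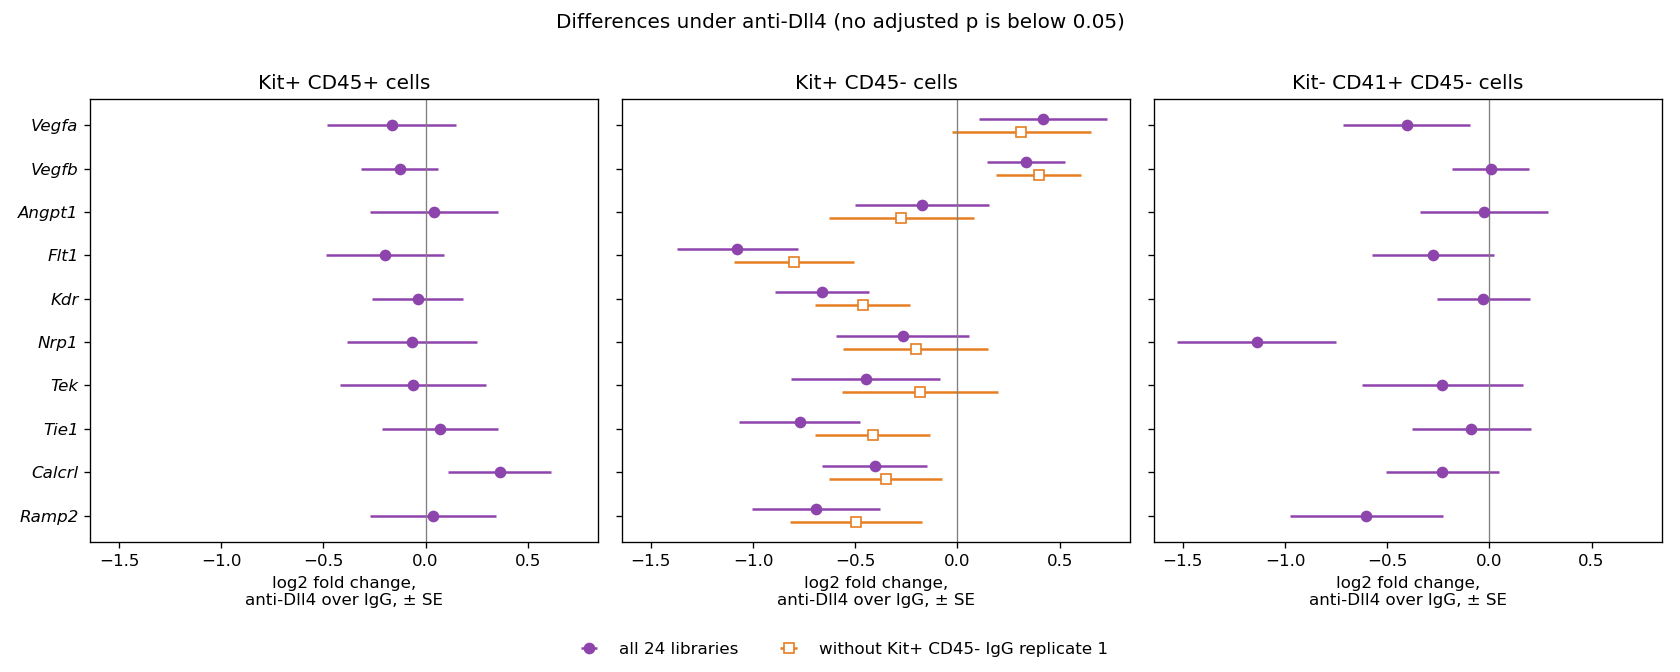
Log2 fold changes of anti-Dll4 over IgG with SE bars in each population; in Kit+ CD45- cells, squares give the values without IgG replicate 1. All 7 receptors lie left of zero in Kit+ CD45- cells, Flt1 at -1.08 with all libraries and -0.80 without that one, and none has an adjusted p below 0.05.

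The ratio of Flt1 to Kdr counts within a library needs no scaling between libraries, and it sets the sink receptor against the signalling one. The exons of Flt1 are longer than those of Kdr, so a log2 count ratio of zero does not mark equal levels and only differences between libraries are read. In Kit+ CD45- cells the log2 ratio was 0.32, 0.76, 0.67 and 0.09 under anti-Dll4, against 1.04, 0.68, 1.00 and 0.77 under IgG. Replicate 2 under anti-Dll4 lay above the lowest IgG library, and the rest of the anti-Dll4 libraries lay below all of them. The means were 0.46 ± 0.31 under anti-Dll4 and 0.87 ± 0.18 under IgG (SD, n = 4 each), a difference of -0.41 with a two-sided exact permutation p of 0.0571 and 0.171 after adjustment over the 3 populations; the smallest p that 4 against 4 libraries allow is 0.0286. Without anti-Dll4 replicate 2 the difference was -0.51 (exact permutation p = 0.0286), and without IgG replicate 1 it was -0.35 (exact permutation p = 0.171). Replicate 2 was the only anti-Dll4 library above any IgG library, so leaving it out sets the groups apart. No conclusion is drawn from the p without it. Among the ratio fits that left out a single library in the 3 populations, only that fit passed the threshold, and 23 did not. In Kit+ CD45+ cells the means were 0.55 ± 0.46 under anti-Dll4 and 0.80 ± 0.35 under IgG (exact permutation p = 0.4, adjusted 0.429, n = 4 each). In Kit- CD41+ CD45- cells they were -0.53 ± 0.60 under anti-Dll4 and -0.28 ± 0.26 under IgG (exact permutation p = 0.429, n = 4 each).

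**Figure D4:**
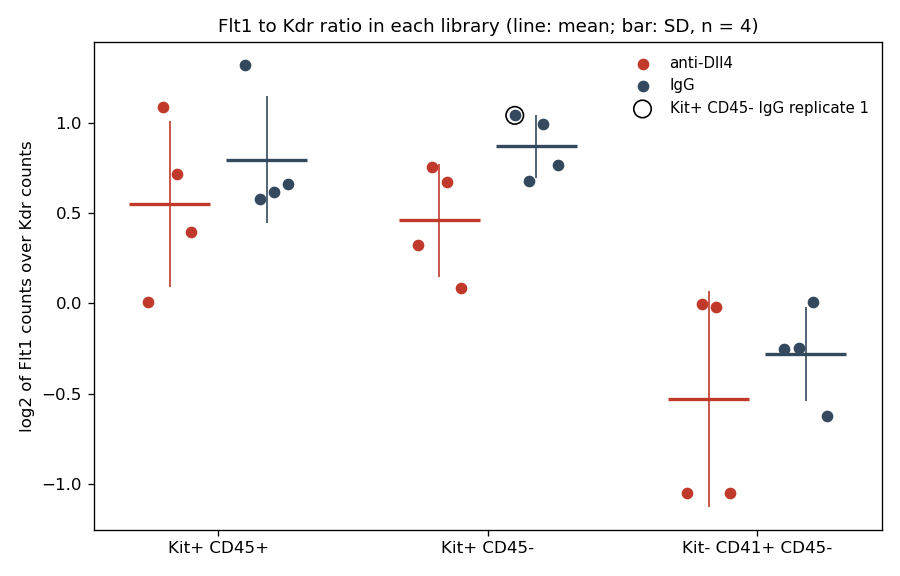
Log2 of Flt1 over Kdr counts in each library by population and antibody; lines are means and bars SD over 4 libraries, and the ring marks Kit+ CD45- IgG replicate 1. In Kit+ CD45- cells the anti-Dll4 libraries other than replicate 2, at 0.32, 0.67 and 0.09, lie below all IgG libraries.

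The genes most like each member over the 24 libraries were found by the root mean square difference of log2 CPM after centring each gene, a description with no test. Ramp2 was nearest to Cd93 (0.45) and Cdh5 (0.54), against a median of 2.73 over all tested genes. For Flt1 the nearest were S1pr1 (0.33) and Laptm4b (0.37), for Nrp1 Kit (0.48), which is also a sorting marker, for Tek Tnfaip2 (0.49), and for Calcrl Cmtm8 (0.38) followed by Tnfaip2 (0.39). Kdr was nearest to Slc17a5 (0.26), Tie1 to Esam (0.26), Angpt1 to Stat4 (0.46), Vegfa to Mthfd2 (0.33) and Vegfb to Bri3bp (0.23). No gene of the 10 was among the 3 nearest of another.

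In the authors' table, whose coordinates are on mm10, the 10 genes lie on 8 chromosomes. Flt1 (ENSMUSG00000029648.13, 147561604 to 147726011, minus strand) and Kdr (ENSMUSG00000062960.10, 75932827 to 75978458, minus strand) share chromosome 5, and Tek (ENSMUSG00000006386.15, 94739289 to 94874976, plus strand) and Tie1 (ENSMUSG00000033191.14, 118471191 to 118490061, minus strand) share chromosome 4. Nrp1 (ENSMUSG00000025810.9) is at 128358604 to 128503363 on chromosome 8, Calcrl (ENSMUSG00000059588.13) at 84330626 to 84425411 on chromosome 2 and Ramp2 (ENSMUSG00000001240.13) at 101246028 to 101259546 on chromosome 11. Vegfa (ENSMUSG00000023951.17) is at 46016993 to 46032369 on chromosome 17, Vegfb (ENSMUSG00000024962.13) at 6982473 to 6987651 on chromosome 19 and Angpt1 (ENSMUSG00000022309.8) at 42424727 to 42676977 on chromosome 15.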

How the data were processed

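RNA-seq was measured in 24 mouse libraries. The deposited count table holds raw read counts per gene. The deposited log2 table equals log2(count / size factor + 1) of the same counts to within 5.2e-14; it served for gene names and positions, and 1 of its columns, which belongs to no listed sample, was not used. The submitters' processing notes name mm10 and, with no role given, DESeq2, HTSeq, STAR, FastQC and CASAVA 1.4; no source used here gives the annotation release or strand setting. Per the labels' protocols, cDNA was amplified by long-distance PCR, so reads are not independent molecules.

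All tests used the counts: edgeR 4.0.16 in R 4.3.3, TMM scaling, the default filterByExpr filter by group, robust dispersions, 1 coefficient per group over all 24 libraries (18 residual degrees of freedom) and Benjamini-Hochberg adjustment over 15618 genes. The fit was tested on simulated data. DESeq2 1.42.0, RLE and upper-quartile scaling, no filter, globin genes removed, a replicate block, only the groups compared and leaving out each library were alternatives. The Flt1 to Kdr ratio used counts plus 0.5 and exact permutation. Exon lengths came from GENCODE, and promoter letters from RefSeq.

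The genes and lists were chosen with earlier results of these data known. All 10 genes were read in each comparison, but not every difference of each gene is printed. Of the pathway list, up to 8 with the smallest p past the threshold, and always Flt4, Angpt2, Adm and Ptprb, could be named. Likeness names at most the 3 nearest genes with symbols that are not predicted models.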

Additional observations from a re-analysis of the deposited data

Results flagged for a closer look

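Among the 60 sets of 4 libraries formed by the 10 genes and 6 groups, 3 held a library far from the others of its group by Dixon's criterion, as chance would for about 1 in 20. No gene passed the test of a difference of the antibody effect between populations. Vegfb in Kit+ CD45+ IgG replicate 1 stood at 22.2 CPM, against 34.6 to 36.7 in the others of its group. Kdr in Kit+ CD45- IgG replicate 1 stood at 122 CPM, against 73.1 to 80.3, in the library whose endothelial marker sum was also the highest of its group. Nrp1 in Kit+ CD45+ anti-Dll4 replicate 1 stood at 25.7 CPM, against 42.5 to 43.6, in 1 of the 3 libraries with few Xist counts.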

How the results depend on the processing

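The counts of called genes kept within 1.5 times under every alternative run, except in Kit+ CD45+ against Kit+ CD45- cells under IgG, where the 2 calls became 1 with RLE size factors, upper-quartile scaling, no filter or globin genes removed, and ran from 1 to 4 when single libraries were left out; Calcrl was the call lost and Angpt1 the one kept, and the cause was not tested. The 4 calls arose without Kit+ CD45- IgG replicate 1 or without Kit+ CD45+ IgG replicate 1. Among all tested genes these fits called 3397 and 2578, against 2998 with all libraries. The Flt1 to Kdr difference in Kit+ CD45- cells ran from -0.51 to -0.29 without single libraries. The replicate block gave the same -0.41, with an exact p of 0.25 over sign changes of the 4 replicate differences. The smallest p that such a test can give is above 0.05, so it could not pass and no conclusion is drawn from it. Vegfb in Kit+ CD45+ against Kit+ CD45- cells under anti-Dll4 (0.03, not called) turned to -0.0287 with RLE, -0.0783 with upper-quartile scaling, -0.027 with DESeq2, -0.0386 with globin genes removed and -0.0274 with only the groups compared. Correlations of same-numbered libraries ran from -0.147 to 0.197, not over 0.1 for every pair in any comparison, so the numbers were not taken as pairs. These correlations do not establish that the populations of a replicate and antibody, which share a set number, are independent. No fit modelled these sets, and the replicate block joined IgG and anti-Dll4 libraries by replicate number instead. With the replicate block the count in Kit+ CD45+ against Kit- CD41+ CD45- cells under IgG was 9 in place of 8, through Tie1 (0.69, adjusted p = 0.0487), and the other counts were equal. Depth limits Nrp1, Ramp2 and Tek in Kit- CD41+ CD45- cells, with as few as 6, 17 and 18 reads. The following differences, none of them called with all libraries, changed sign when a single library was left out, and their lowest and highest values are given. For anti-Dll4 against IgG in Kit+ CD45- cells these were Angpt1 (-0.352 to 0.0408). For anti-Dll4 against IgG in Kit- CD41+ CD45- cells these were Vegfb (-0.128 to 0.0971), Angpt1 (-0.142 to 0.14), Kdr (-0.145 to 0.0327), Tek (-0.528 to 0.226), Tie1 (-0.234 to 0.0227) and Calcrl (-0.435 to 0.0228). For anti-Dll4 against IgG in Kit+ CD45+ cells these were Vegfa (-0.342 to 0.252), Angpt1 (-0.233 to 0.341), Kdr (-0.204 to 0.145), Nrp1 (-0.182 to 0.085), Tek (-0.234 to 0.117), Tie1 (-0.0862 to 0.273) and Ramp2 (-0.0494 to 0.138). For the mean anti-Dll4 effect these were Vegfa (-0.126 to 0.0874) and Angpt1 (-0.144 to 0.0468). For Kit+ CD45- against Kit- CD41+ CD45- cells under IgG these were Vegfb (-0.00686 to 0.219) and Tie1 (-0.0638 to 0.458). For Kit+ CD45+ against Kit+ CD45- cells under anti-Dll4 these were Vegfb (-0.101 to 0.148).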
